A study of Mus musculus with 6 samples.

Results

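The alpha crystallin genes Cryaa and Cryab, the beta crystallin genes Cryba1, Cryba2, Cryba4, Crybb1, Crybb2 and Crybb3, and Crygs were examined in retinal RNAseq of EFV-treated and control 5XFAD mice. These 9 genes, of 19401 listed in at least 1 library, were chosen on their measured values in the same libraries, in which they were known to be high in 1 control library and lower in the EFV group. Their levels and fold changes are therefore given as a description. Where the fit across all genes is counted, the count is set beside the share of all genes, and it supports nothing about these 9. Crygs encodes a gamma crystallin, so the set is wider than alpha and beta crystallins alone.

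Efavirenz (EFV) is an anti-HIV drug, and 5XFAD is a transgenic mouse model of amyloid deposition. Retina plus retinal pigment epithelium (RPE) of 5 to 6 mice aged 9 months was pooled for every library, with 3 libraries a group. The methods of the study describe the mice as male. All pools came from hemizygous 5XFAD F1 mice on the B6SJL background, without the retinal degeneration alleles rd8 (Crb1) and rd1 (Pde6b), that carry mutant human transgenes, APP among them, driven by the Thy1 promoter, which is active in neurons. The EFV group received the drug in its drinking water from 3 to 9 months of age, at 0.08 mg/kg of body weight according to the labels, and the control group received aqueous Tween 80. The study's methods state a slightly higher daily dose. Replicate error here is the variation from pool to pool, and a bulk library cannot tell fewer cells of a type from less RNA per cell.

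Crystallins are the soluble proteins that fill lens fiber cells and give the lens its transparency and refractive power. Alpha crystallins belong to the small heat shock proteins and act as chaperones, whereas the beta and gamma crystallins share a fold of Greek key motifs and serve mainly as structural proteins. Lens is not their only site: Cryab is made in many tissues, and transcripts of Cryaa, Cryba1, Crybb2 and Crygs have also been found in retina, where crystallins are known for changes under stress and injury. In this background, Cryba4, Crybb1 and Crybb3 are taken as restricted to lens, and Cryba2 was assigned to neither class. The assignment rests on earlier knowledge of the genes, but it was made with earlier results of these data known.

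Both pairs of neighbouring beta crystallin genes lie on chromosome 5 (mouse build GRCm38, the same as mm10). Cryba4 (chr5:112246493-112252518, minus strand) and Crybb1 (chr5:112255815-112269585, plus strand) are separated by 3296 bases and are transcribed away from each other. Crybb2 (chr5:113058258-113070117) and Crybb3 (chr5:113075839-113081584) are both on the minus strand, with 5721 bases between them. The remaining genes are spread over the genome, with Cryaa at chr17:31677807-31681733 on the plus strand and Cryab at chr9:50751325-50756636 on the plus strand. On the minus strand lie Cryba1 at chr11:77718615-77725283, Cryba2 at chr1:74889934-74893143 and Crygs at chr16:22805203-22811577. Cryaa overlaps an antisense gene, Cryba1 overlaps Nufip2, Crybb2 overlaps a processed pseudogene, and Cryab overlaps Hspb2, a small heat shock protein gene on the other strand. Strandedness of the libraries is not stated in the sources used here, so reads of such overlaps cannot be told apart.

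The promoters of the 9 genes were compared because the genes stood high in the same library. RefSeq promoter sequences (GRCm38.p6) were matched for 8 genes, all but Cryab, and short motifs were searched on both strands in the 250 bases before each start. TGCTGA, part of the element bound by Maf proteins, which activate crystallin genes in lens, was present in 7 of 8 promoters, Crybb2 being the exception, and in 16.1% of all 32851 promoters of this length. TATAAA, the core of a TATA box, was present in Crybb1, Cryba1 and Crygs (3 of 8, against 12.4% of all promoters). ACAAAG, a Sox core, was present in Crybb1, Crybb3 and Cryba1 (3 of 8, against 16.5%). GAANNTTC, the core of a heat shock element, was present in 0 of 8 and in 6.69% of all promoters. These matches are letters in a window and were not tested as binding sites. The sequences nearest to the start are shown for both lens-restricted neighbours, for Crybb3, for Cryba1, which has all of the first 3 motifs, and for Crybb2, which has none of them, 5′ to 3′ on the strand of the gene, with matches in capitals (TCAGCA and CTTTGT are TGCTGA and ACAAAG read on the other strand). They lie at chr5:112252519-112252638 (minus) for Cryba4, chr5:112255700-112255814 (plus) for Crybb1, chr5:113081585-113081704 (minus) for Crybb3, chr11:77725294-77725413 (minus) for Cryba1 and chr5:113070118-113070237 (minus) for Crybb2.
Cryba4: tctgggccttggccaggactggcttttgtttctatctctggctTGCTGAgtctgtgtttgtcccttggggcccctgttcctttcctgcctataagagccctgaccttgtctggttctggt
Crybb1: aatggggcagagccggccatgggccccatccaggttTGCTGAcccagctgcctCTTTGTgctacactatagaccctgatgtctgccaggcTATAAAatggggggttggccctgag
Crybb3: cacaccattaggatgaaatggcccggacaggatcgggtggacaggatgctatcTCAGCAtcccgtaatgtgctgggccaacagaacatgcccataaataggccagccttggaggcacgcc
Cryba1: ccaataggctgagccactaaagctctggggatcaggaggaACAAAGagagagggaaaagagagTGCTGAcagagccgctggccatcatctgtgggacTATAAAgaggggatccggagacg
Crybb2: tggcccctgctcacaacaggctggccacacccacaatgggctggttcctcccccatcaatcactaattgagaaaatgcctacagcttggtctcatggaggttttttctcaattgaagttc

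Distances are counted to the start used by the RefSeq promoter sequences, which can differ from the gene ends given above. For Crybb1 the printed stretch was cut to 115 bases and ends short of that start. In Crybb1 the TATAAA match began 30 bases and the TGCTGA match 84 bases before the start. In Cryba1 these distances were 23 and 57 bases. Cryba4 held TGCTGA at 3 places, 182, 135 and 77 bases before the start, and only the last of them lies in the stretch printed. In Crybb3 the match was on the other strand, 67 bases before the start. The matches of Cryaa (108 bases before the start), Cryba2 (149) and Crygs (200, with TATAAA at 25) were not printed.

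All 9 crystallin genes were highest in 1 control library, control 3, in which they took 0.380% of all counts against 0.00626 to 0.0217% in the other 5 libraries. Levels are given as FPKM, that is, fragments scaled to transcript length and to the size of the library, so that genes of different length can be compared. The sum of the 9 genes was 4271 FPKM in control 3, 90.4 in control 1 and 152.0 in control 2. In the EFV-treated mice it was 161.6, 70.8 and 240.6 FPKM in libraries 1, 2 and 3. The EFV libraries thus lay on both sides of controls 1 and 2, and control 3 stood apart from all of them. Total counts did not set it apart, since they ranged from 23455167 to 24590278 over the 6 libraries and were 24337444 in control 3.

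**Figure D1:**
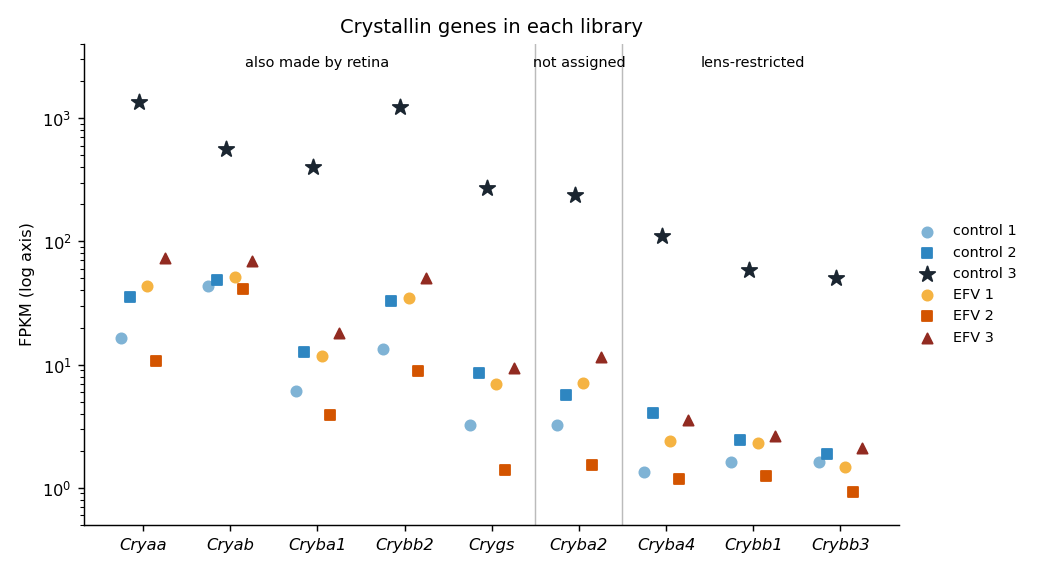
FPKM (log axis) of the 9 crystallin genes, with 1 point per library and 3 libraries each of control and EFV-treated 5XFAD mice; the gray lines divide the genes into classes. The star, control 3, lies above every other point of its gene, from 50.0 FPKM for Crybb3 to 1341 for Cryaa, and EFV 2 is the lowest point of each gene.

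Of the alpha crystallins, Cryaa (Entrez 12954), the chaperone made mainly by lens, was at 16.4, 35.3 and 1341 FPKM in controls 1, 2 and 3 and at 43.5, 10.7 and 73.7 in EFV libraries 1, 2 and 3. The groups overlapped, and without control 3 the highest and lowest values were both in EFV libraries. Cryab (Entrez 12955), a stress-inducible chaperone present in muscle, heart, glia and lens, was at 43.4, 48.8 and 564.8 FPKM in the controls and at 51.2, 41.0 and 69.2 in the EFV libraries. Cryab was the steadiest of the 9 genes outside control 3: its highest value among the other 5 libraries was 1.69 times its lowest, whereas for Cryaa this was 6.88 times. As mean ± SD over 3 libraries, Cryaa was at 464.4 ± 759.6 FPKM in control and 42.6 ± 31.5 in EFV-treated mice, and the control SD exceeded the control mean for each of the 9 genes.

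Of the acidic beta crystallins, which form oligomers with the basic ones, Cryba1 (Entrez 12957) was at 6.09, 12.6 and 398.4 FPKM in the controls and at 11.8, 3.91 and 18.0 in the EFV libraries. This gene encodes both the A3 and the A1 polypeptides through different translation starts. Cryba2 (Entrez 12958) was at 3.22, 5.69 and 239.4 FPKM in the controls and at 7.06, 1.52 and 11.5 in the EFV libraries, the widest spread outside control 3 (7.56 times). Cryba4 (Entrez 12959) was at 1.34, 4.04 and 109.7 FPKM in the controls and at 2.41, 1.19 and 3.54 in the EFV libraries. It was the only gene of the 9 in which control 2, not EFV 3, came second to control 3.

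Of the basic beta crystallins, Crybb2 (Entrez 12961), the most abundant beta crystallin of the adult lens, was at 13.3, 32.7 and 1239 FPKM in the controls and at 34.9, 8.85 and 50.6 in the EFV libraries. Its levels followed those of Cryaa in all 6 libraries, at 0.686 to 0.926 times the Cryaa FPKM, with 0.924 in control 3. Crybb1 (Entrez 12960), which is switched on as lens fibers differentiate, was at 1.63, 2.44 and 58.7 FPKM in the controls and at 2.31, 1.24 and 2.65 in the EFV libraries. Crybb3 (Entrez 12962), also a lens fiber gene, was at 1.63, 1.89 and 50.0 FPKM in the controls and at 1.47, 0.93 and 2.12 in the EFV libraries. Both lay within a narrow band near the bottom of the set outside control 3, with a spread of 2.14 times for Crybb1 and 2.28 times for Crybb3. Crygs (Entrez 12970), the gamma crystallin that persists in adult lens, was at 3.26, 8.54 and 269.3 FPKM in the controls and at 6.91, 1.40 and 9.38 in the EFV libraries. The next values below control 3 were those of EFV 3 and control 2, 1 from each group.

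The low values still rested on counts above the count minimum of 10 in every library. The lowest of all was Crybb3 in EFV 2, with 17 counts (95% exact Poisson interval 9.90 to 27.2), against 934 (875.1 to 995.9) in control 3. Crygs had 22 counts in EFV 2 (13.8 to 33.3) and 4261 in control 3 (4134 to 4391). These intervals cover counting error only and not the spread between pools.

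The other 5 libraries followed nearly the same order in each gene. EFV 2 was lowest in all 9 genes and EFV 3 was highest of the 5 in all but Cryba4. In 4 genes the order from high to low was EFV 3, EFV 1, control 2, control 1 and EFV 2, and in 3 more it differed only in control 2 standing above EFV 1. The crystallin genes therefore tended to rise and fall together from pool to pool, also apart from control 3. The control side then rests on controls 1 and 2 only. For the low genes part of this order lies within counting error. Crybb3 had 39 counts in EFV 3 (95% exact Poisson interval 27.7 to 53.3) and 31 in control 1 (21.1 to 44.0). Ordered by their median in these 5 libraries, the genes ran from Cryab (48.8 FPKM) through Cryaa (35.3), Crybb2 (32.7), Cryba1 (11.8), Crygs (6.91), Cryba2 (5.69), Cryba4 (2.41) and Crybb1 (2.31) to Crybb3 (1.63). The ranges of each pair of neighbours in this order overlapped.

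The make-up of the set shifted with its level. Cryab was the leading gene in controls 1 and 2 and in EFV 1 and 2, whereas Cryaa led in control 3 and in EFV 3. Cryab made up 58.0% of the summed FPKM in EFV 2, the library with the lowest sum, and 13.2% in control 3, the library with the highest. In the other libraries its share was 48.1% in control 1, 32.1% in control 2, 31.7% in EFV 1 and 28.8% in EFV 3. The order of these shares was the reverse of the order of the sums in all 6 libraries. Cryaa made up 31.4% in control 3 and 30.6% in EFV 3, and its share was lowest, at 15.1%, in EFV 2. Because a share of the sum and the sum are built from the same values, this is a description of the libraries only.

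A mean transcript length accompanies each gene, and it described the mix of Cryab transcripts rather than their summed level. It comes from the same division of reads as the FPKM, and reads of the overlapping Hspb2 cannot be told apart. Of 6 Cryab transcripts listed, 2 are BGI models whose length is not given here. In the GENCODE annotation, Cryab transcripts have a spliced length of 1117 or 846 bases. The authors' transcript models can differ from these: Crygs has 875 bases in GENCODE and 708 in the deposited lengths. The mean lengths below are therefore compared between libraries only. The mean length of Cryab was 937 bases in control 1, 944 in control 2, 931 in EFV 1 and 941 in EFV 2. It was shorter in both libraries with the most crystallin, at 916 bases in EFV 3 and 880 bases in control 3. The library with the most Cryab thus had the largest weight of the shorter transcripts as estimated by the authors' software. Cryaa varied little in the same measure, from 1138 to 1143 bases, and Cryba2 and Crygs have a single transcript each in the files, of constant length.

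**Figure D2:**
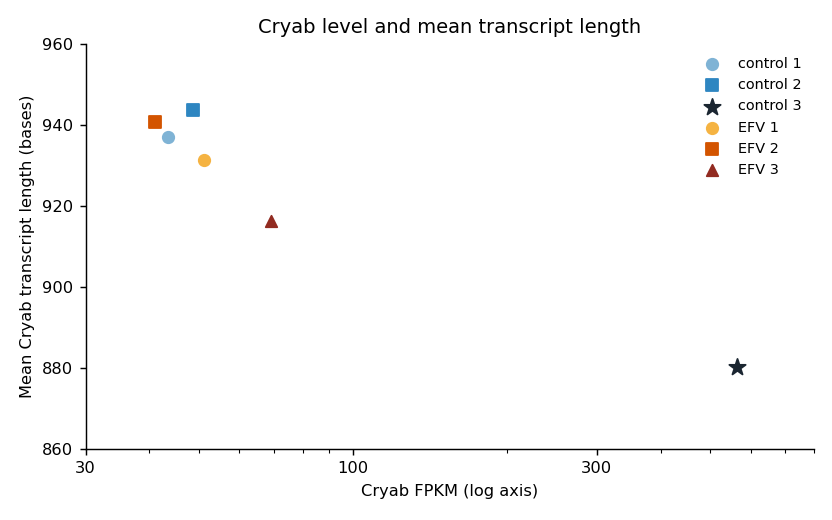
Mean length of Cryab transcripts (bases; the axis does not start at 0) against Cryab FPKM (log axis), with 1 point per library. Control 3, at 564.8 FPKM, has the shortest mean (880 bases), EFV 3 is next (916 bases), and the other 4 libraries lie between 931 and 944 bases.

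The excess of control 3 was compared between the lens-restricted genes and those also made by retina. Relative to the median of the other 5 libraries, the FPKM in control 3 was 45.5 times higher for Cryba4, 30.7 times for Crybb3 and 25.4 times for Crybb1, the lens-restricted genes. For the genes also made by retina it was 39.0 times higher for Crygs, 38.0 for Cryaa, 37.9 for Crybb2, 33.6 for Cryba1 and 11.6 for Cryab. Cryba2, in neither class, was 42.1 times higher. The ratios of the classes overlapped, and apart from Cryab the genes also made by retina all lay between the lowest and the highest lens-restricted gene. Cryab, the gene with the widest expression outside lens, was the only 1 of the 9 below 25 times. Against the highest of the other 5 libraries, rather than their median, control 3 was still 8.16 times higher for Cryab and 18.2 (Cryaa) to 28.7 times (Crygs) higher for the rest.

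The classes differed in level, in control 3 and outside it. The medians of the other 5 libraries were 1.63 to 2.41 FPKM for the 3 lens-restricted genes and 6.91 to 48.8 FPKM for the 5 genes also made by retina. These ranges did not overlap, and neither did those in control 3, at 50.0 to 109.7 FPKM and 269.3 to 1341 FPKM. Lens-restricted genes varied 2.14 to 3.39 times across these 5 libraries, while the genes also made by retina varied 1.69 (Cryab) to 6.88 times (Cryaa). The sum of the lens-restricted genes was 3.36 to 8.37 FPKM in the 5 libraries and 218.4 in control 3. The sum of those also made by retina was 65.9 to 220.8 FPKM and 3813 in control 3.

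**Figure D3:**
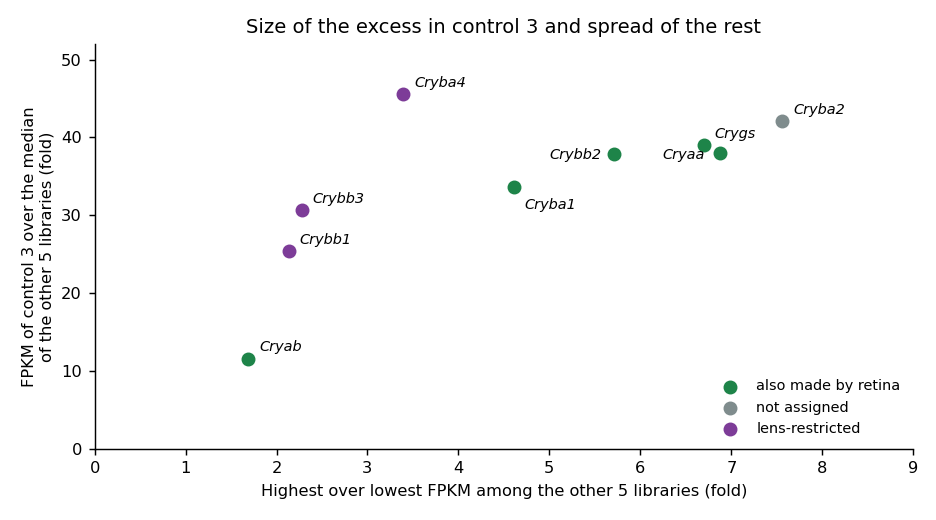
FPKM of control 3 over the median of the other 5 libraries (vertical axis, fold) against the spread of those 5 libraries (horizontal axis, highest over lowest FPKM), with 1 point per gene, colored by class. Cryab sits alone at the lower left (11.6-fold, spread 1.69), and the lens-restricted genes lie at spreads of 2.14 to 3.39 with excesses of 25.4- to 45.5-fold.

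The amounts added in control 3 were also set beside the smaller difference between EFV 3 and EFV 2, the highest and lowest of the EFV libraries for all 9 genes. In control 3 the excess over the median of the other 5 libraries was 1306 FPKM for Cryaa and 1206 FPKM for Crybb2, which is 92.4% of the Cryaa excess. Between EFV 3 and EFV 2 the gap was 63.0 FPKM for Cryaa and 41.7 for Crybb2, or 66.2%. Cryab stood at 39.5% of Cryaa in the former and 44.8% in the latter, and Cryba1 at 29.6% and 22.4%. Crygs stood at 20.1% and 12.7%, and Cryba2 at 17.9% and 15.8%. The share was thus lower between the EFV libraries in both classes, with Cryab the exception. Cryba4, a lens-restricted gene, was 8.21% of Cryaa in control 3 and 3.73% between EFV 3 (65 counts) and EFV 2 (22 counts). For Crybb1 these shares were 4.32% and 2.24%. No test of these differences was possible, since each rests on single libraries.

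In the comparison the study was designed for, EFV-treated against control mice, the log2 fold change (EFV over control) was negative for all 9 genes with all 6 libraries in the fit, and the groups overlapped for all 9. It ran from -4.02 (SE 1.41) for Cryba4 to -1.98 (SE 0.85) for Cryab, with a median of -3.64, against a median of 0.00 over all genes tested. After Benjamini-Hochberg adjustment of the p from edgeR's quasi-likelihood test, 0 of the 9 were called at 0.05, as were 0.0% of the 15537 genes tested. In this fit all 9 lay at or below an unadjusted p of 0.05, as did 3.04% of all genes tested, and this contrast helped to choose the 9. The count of 9 changed with the fit, as given below. FPKM values of the groups did not overlap for 0 of the 9, against 7.67% of all genes tested. Nothing is read from these counts about the 9 genes.

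The fold changes of all 9 genes rested on control 3. Without it the log2 fold change was 0.70 (SE 0.63) for Cryaa, 0.56 (SE 0.64) for Cryba2, 0.42 (SE 0.60) for Crybb2, 0.25 (SE 0.53) for Cryba1 and 0.18 (SE 0.17) for Cryab. It was -0.29 (SE 0.37) for Crybb3, -0.19 (SE 0.52) for Cryba4, -0.02 (SE 0.64) for Crygs and -0.02 (SE 0.36) for Crybb1. The median went from -3.64 to 0.18, and 5 of 9 genes had a positive value. All 3 lens-restricted genes were among the 4 with a negative value, and each of these 4 was closer to 0 than its own standard error. As mean of controls 1 and 2 against the mean ± SD of 3 EFV libraries, Cryaa was at 25.9 against 42.6 ± 31.5 FPKM and Cryab at 46.1 against 53.8 ± 14.3. For Crybb1 the values were 2.04 against 2.07 ± 0.74 FPKM. With 3 libraries a group, as in the comparison of all 6 libraries, the smallest two-sided p of an exact permutation test is 0.10. That bound does not cover the fits without control 3, which hold fewer control libraries.

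**Figure D4:**
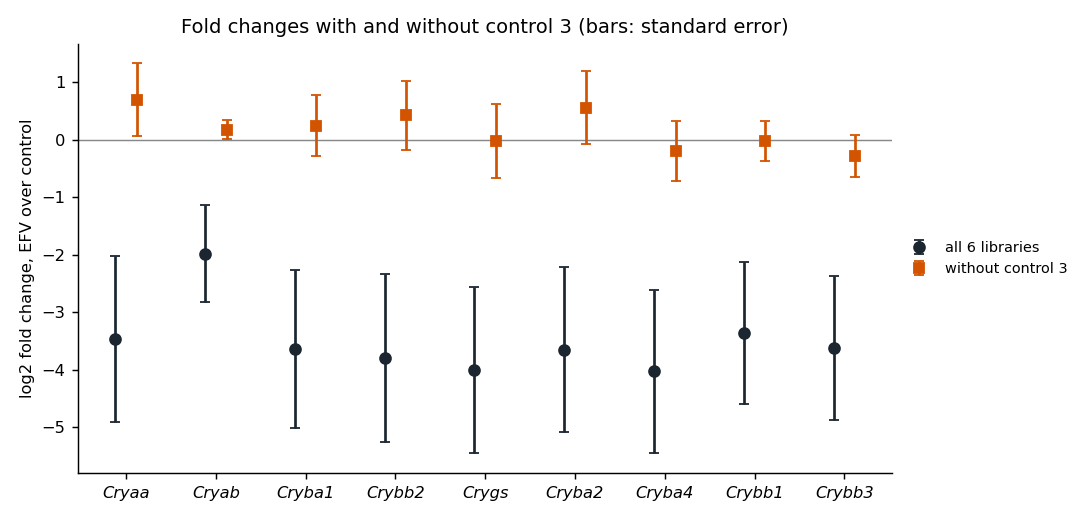
The log2 fold change of EFV over control for each crystallin gene from edgeR, with bars of 1 standard error; circles are fits to all 6 libraries and squares are fits without control 3. All circles lie below 0 (-4.02 to -1.98), and the squares lie around 0, from -0.29 for Crybb3 to 0.70 for Cryaa.

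The remaining beta-gamma crystallin genes were nearly silent outside control 3. Of 7 listed, 5 were found and 0 passed the count filter. Crygb, a gamma crystallin of the lens fiber nucleus, was at 0.14, 0.50 and 19.4 FPKM in the controls and at 0, 0.07 and 0.22 in the EFV libraries. Crygc, of the same cluster, was at 0, 0.17 and 16.9 FPKM and at 0.22, 0 and 0.07. Crygd was at 0.07, 0.29 and 10.7 FPKM and at 0.14, 0 and 0. These 3 were thus high in the same library as the 9 genes. Cryga was not, at 0.14 FPKM in control 3 and 0.07 to 0.43 in the others, and Crygn was at 2.44 against 0.15 to 0.60. Cryga, Crygb, Crygc and Crygd are close copies in 1 cluster, so the division of reads between them is uncertain.

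Crystallins that are enzymes or enzyme relatives did not share the pattern. All 5 were tested, and 0 were called before or after adjustment. Of the 5, 3 had a negative and 2 a positive log2 fold change, and the median was -0.03. Of all genes tested, 0.0% were called after adjustment, 3.04% lay at an unadjusted p of 0.05 or less (edgeR) and 49.5% had a negative value. Crym, a thyroid hormone-binding protein, was at 29.4, 24.5 and 34.1 FPKM in the controls and at 30.6, 26.6 and 29.7 in the EFV libraries. Cryzl1 was at 18.7 FPKM in control 3 and 17.8 to 21.2 in the others.

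Among the relatives of the alpha crystallins, 4 of 8 small heat shock protein genes were tested, and 0 were called before or after adjustment. Over all genes tested these shares were 0.0% after adjustment and 3.04% at an unadjusted p of 0.05 or less (edgeR). All 4 had a negative log2 fold change, against 49.5% of all genes tested, and the median was -0.04. Without control 3, 2 of the 4 had a negative value. Hspb6, the most abundant, was at 100.1, 112.4 and 120.5 FPKM in the controls and at 109.6, 107.2 and 113.8 in the EFV libraries. Hspb1, the inducible HSP of many stressed tissues, was at 9.61 FPKM in control 3 and 5.44 to 7.66 in the others. Both were thus highest in control 3, by far less than Cryab. Hspb2, which overlaps Cryab, was at 0.29, 0.75 and 1.37 FPKM in the controls and at 0, 0.26 and 0.44 in the EFV libraries. Without strand, its reads cannot be separated from those of Cryab.

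Of 12 genes for transcription factors known to act on crystallin genes, 9 were tested, and 0 were called before or after adjustment. Of the 9, 6 had a negative and 3 a positive log2 fold change, and the median was -0.01. The shares over all genes tested were 0.0% after adjustment and 3.04% at an unadjusted p of 0.05 or less (edgeR). A negative value was found for 49.5% of all genes tested. Pax6, a regulator of eye development that retina also makes, was at 83.7, 77.3 and 81.0 FPKM in the controls and at 84.1, 81.7 and 83.4 in the EFV libraries. Six3 and Prox1, also made by retina, were at 32.5 and 29.1 FPKM in control 3, against 31.1 to 33.8 and 25.7 to 28.3 in the others. Hsf4, which is also on the list of lens markers, was at 5.33 FPKM in control 3 and 4.86 to 5.50 in the others, and Maf was at 7.82 against 6.18 to 7.12. Some factors that were low in all libraries had their highest level in control 3. Foxe3, a factor of lens epithelium, was at 3.05 FPKM in control 3 and 0 to 0.20 in the other 5. Sox1 was at 0.27 FPKM in control 3 and 0 to 0.04 in the others, and Pitx3 at 0.99 against 0 to 0.19. These 3 did not pass the count filter.

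Markers of lens moved with the 9 genes. The summed FPKM of 13 lens markers was 108.9 in control 3, 7.85 and 8.41 in controls 1 and 2, and 6.41 to 9.51 in the EFV libraries. Hsf4 alone made up most of the sum outside control 3, at 4.86 to 5.50 FPKM, and was at 5.33 in control 3. The ratio of the sums is therefore smaller than that of most single markers. Lenep, a lens epithelial gene, was at 8.93 FPKM in control 3 and was not listed in the other 5 libraries, where it was taken as 0. Grifin, a lens galectin relative, was at 15.6 FPKM against 0 to 0.95, and Lim2, a fiber membrane protein gene, at 15.04 against 0.15 to 0.36. Mip, the water channel of lens fibers, was at 19.2 FPKM against 0.33 to 0.82. Of the 6 lens markers tested, 5 were at least 4-fold higher in control 3 than in the median of the others, and the exception was Hsf4, which is made by other tissues too. Their median log2 fold change was -3.23 with all libraries and -0.04 without control 3. The part of lens RNA in the crystallin values was not tested.

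Markers of retina and its neighbours did not set control 3 apart, with the exception of 1 gene of the cornea list. The summed FPKM of 5 rod markers was 23974 in control 3 and 22396 to 24061 in the others, so the tissue carried the label's defining genes in all libraries. Müller glia markers were at 1105 FPKM against 1098 to 1136, and RPE markers at 262.5 against 229.8 to 276.5. Cone markers were at 459.0 FPKM against 399.1 to 472.6, ganglion cell markers at 176.4 against 171.8 to 194.3 and astrocyte markers at 9.22 against 6.79 to 11.3. The ciliary and iris list was at 4.65 FPKM against 3.54 to 8.39, and the sclera and fibroblast list at 1.91 against 1.46 to 2.60. The cornea list was at 15.2 FPKM in control 3 against 2.15 to 5.06. Almost all of that was Aldh3a1, an aldehyde dehydrogenase of corneal epithelium, at 13.8 FPKM against 0.84 to 1.45, whereas Krt12, the keratin that defines corneal epithelium, was at 0.53 FPKM in control 3 and 0.60 to 2.57 in the others. The part of cornea was not tested.

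**Figure D5:**
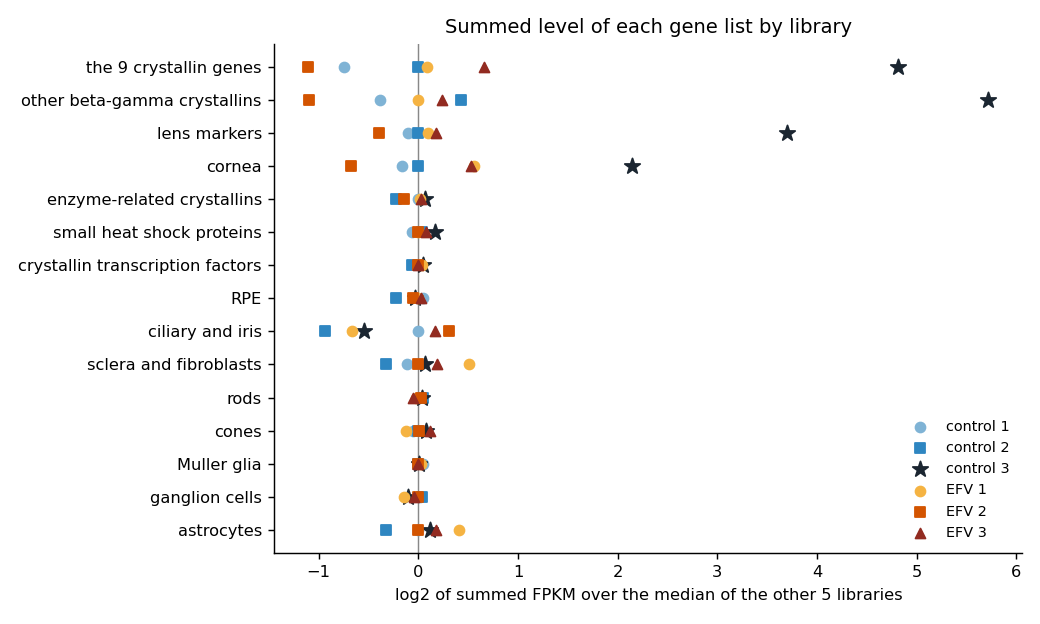
Summed FPKM of each gene list in each library, as log2 of the ratio to the median of the 5 libraries other than control 3. Control 3 (star) lies far to the right for the 9 crystallin genes (4271 FPKM), the other beta-gamma crystallins (49.5), the lens markers (108.9) and the cornea list (15.2), and among the other points for rods, cones, Müller glia, RPE and ganglion cells. Outside control 3 the lens marker sum is mostly Hsf4, which lowers the ratio of that list.

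The genes most like the 9 crystallin genes were sought among all 15537 genes tested, by the ratio of control 3 to the median of the other 5 libraries in library-scaled counts (CPM, TMM scaling). A ratio of 4 was reached by 37 genes, of which 9 were the crystallin genes, 5 were lens markers and 23 were in neither list. When each of the other libraries was compared with the median of the rest in the same way, 10 (EFV 2) to 19 genes (EFV 3) reached it. Of the 15 genes outside the set with the largest ratios, 7 had a median at or near 0 and were not 4-fold above the highest of the other libraries, among them 6 BGI gene models without a symbol, and Fbxl8. The other 8 were 4-fold above all other libraries. They included the lens genes Lgsn, a glutamine synthetase relative, Bfsp1 and Bfsp2, which encode the beaded filament proteins, and Mip, together with Wnt7b, Aldh3a1 and Nid1. Lgsn was at 11.6 FPKM in control 3 and 0 to 0.46 in the others, and Bfsp1 at 11.8 against 0.14 to 0.47. Wnt7b, a secreted Wnt ligand, was at 3.36 FPKM against 0 to 0.17, and Nid1, a basement membrane protein gene, at 3.42 against 0.38 to 0.70. By the stricter measure, 4-fold above the highest of the other 5 libraries, control 3 had 19 genes, control 1 had 1 and the remaining 4 libraries had 0. The 19 held all 9 crystallin genes, but these were chosen with their high level in control 3 known, so their place there is no separate result.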

How the data were processed

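RNA of 3 control and 3 EFV-treated pools was measured after poly-A selection. The submitters' processing notes name HISAT2 2.0.4, Bowtie2 2.2.5, RSEM 1.2.12 and mm10. The authors estimated an expected count per gene with RSEM from reads aligned with Bowtie2, and these deposited counts are not normalized. The authors divided them by transcript length and library total to give the deposited FPKM. A gene absent from a library was taken as 0. Annotation release and strandedness are not given in the sources used here.

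Expected counts were rounded, and the 15537 genes that reached 10 counts in 3 or more libraries entered edgeR 4.0.16 under R 4.3.3 (quasi-likelihood test, TMM scaling, group only, two-sided, Benjamini-Hochberg over all genes). Log2 ratios between libraries used CPM with a prior of 0.5 counts. Alternatives were RLE and total count scaling, no filter, DESeq2 1.42.0, limma 3.58.1 on log2(FPKM + 0.1) and log2(FPKM + 1), a replicate block and leaving out each library. Scripts were tested on simulated data. Total counts were 23455167 to 24590278, so counting error weighs most near the minimum of 10 counts. No libraries were duplicates: chi-square per degree of freedom over all pairs of libraries was 5.51 to 13.8.

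The 9 genes, their classes and the gene lists were chosen with earlier results of these data known. All 9 genes were named; from other lists, up to 4 genes with the highest mean FPKM or the largest ratio of control 3, and the 15 genes most like the 9, of which 1 is counted but not reported here. Hsf4, named as an exception, Maf, Sox1, Pitx3, Krt12, R3hdml, Cd24a and the immediate-early genes were chosen after their values were seen. Cryba4, Crybb1, Crybb2, Crybb3 and Cryba1 promoter stretches were cut to bases outside GENCODE exons; sequences are from RefSeq.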

Additional observations from a re-analysis of the deposited data

How the results depend on the processing

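Control 3 decided the direction of the crystallin fold changes. Over fits leaving out 1 library each, the median log2 fold change of the 9 genes ran from -4.20 (without control 1) to 0.18 (without control 3), and the number of genes lower in EFV from 4 (without control 3) to 9. Under RLE or total count scaling, no filter, DESeq2 and limma all 9 were lower. On the log2(FPKM + pseudocount) scale of limma the median was -1.70 with 0.1 and -1.58 with 1. At an unadjusted p of 0.05 or less, edgeR had 9 of the 9 genes with all libraries and 6 with the replicate block. DESeq2 and both limma fits had 0. With edgeR the number was 0 without control 3, EFV 1 or EFV 2, 3 without EFV 3, and 9 without control 1 or 2. At an adjusted p of 0.05, 11 genes were called with DESeq2 and 0 to 1 in the fits leaving out a library (1 without EFV 1), none of them crystallin genes; edgeR called 0 with all libraries, where 472 lay at an unadjusted p of 0.05 or less. Total count scaling moved the split of these from 241 lower and 231 higher to 162 lower and 290 higher.

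With the replicate block the median log2 fold change of the 9 genes was -2.44, and of all genes 0 were called and 520 lay at an unadjusted p of 0.05 or less. The numbers do not pair the samples by the labels: same-numbered samples had correlations of deviations of 0.08 to 0.12, against -0.10 to -0.01 for different numbers, a hint from the data only. The ratio of control 3 to the highest of the other 5 libraries was chosen after seeing the data. By construction it cannot exceed the ratio to their median, so only its size is given. The log2 ratio went from 5.23 to 4.21 for Cryaa, from 5.51 to 4.74 for Cryba4 and from 3.41 to 2.99 for Cryab. Depth limits the low values, which rest on as few as 17 counts.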

Other observations

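Among genes outside the lists that were high in control 3, all chosen after their values were seen, immediate-early genes were included. Egr1, an immediate-early transcription factor gene, was at 54.4 FPKM in control 3 and 5.52 to 20.04 in the other 5 libraries. Fosb was at 4.95 FPKM against 0.89 to 1.66, and Egr4 at 3.90 against 0.32 to 1.26. R3hdml was at 11.6 FPKM against 1.87 to 2.45, and Cd24a, which encodes a cell surface glycoprotein of many epithelia and neurons, at 22.6 against 5.24 to 6.46. In EFV 1 the level of Egr1 was the second highest (20.04 FPKM). The crystallin genes were higher in EFV 3 than in EFV 1 for all 9 genes. A relation between immediate-early and crystallin levels was not tested.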
